A study of Mus musculus with 32 samples.

Results

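Calpastatin, the inhibitor encoded by Cast, was set beside 4 genes of the calpain proteases, Capn1, Capn2, Capns1 and Capn5, in mouse mammary epithelial cells treated with transforming growth factor β (TGFβ). The members were the probe sets annotated to 1 gene symbol among these 5 genes, of 18193 genes with such a probe set. A probe set is a group of short array probes that reads 1 transcript or a few related ones. There were 9 such probe sets of 45037 on the array, 3 for Cast (1435972_at, 1451413_at and 1426098_a_at), 2 for Capn1 (1417228_at and 1417229_at), 1 for Capn2 (1416257_at), 1 for Capns1 (1426400_a_at) and 2 for Capn5 (1418671_at and 1449165_at), and all 9 passed the filter on low signals that left 25432.

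Calpains are cysteine proteases of the cytosol that are activated by calcium and cut their substrates at few sites, so that a protein is reshaped rather than degraded. Capn1 encodes the catalytic subunit of μ-calpain and Capn2 that of m-calpain, and each pairs with the small regulatory subunit encoded by Capns1. Calpastatin binds these calcium-activated heterodimers and blocks their active site. Capn5 encodes a non-classical calpain that lacks the calcium-binding domain through which the classical large subunits pair with the small one. In epithelial and mesenchymal cells calpains are best known for cutting talin and other proteins of focal adhesions and of the cortical cytoskeleton during migration.

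RNA came from NMuMG cells, a mouse mammary gland epithelial line that undergoes epithelial-mesenchymal transition (EMT) under TGFβ, and from E1KD cells, a derivative of NMuMG with stable knockdown of hnRNP E1, an RNA-binding protein encoded by Pcbp1. Total RNA and 2 pools of a sucrose gradient were measured on Affymetrix whole-genome mouse arrays, the polysomal pool (transcripts loaded with several ribosomes) and the monosomal pool (the lighter, non-translating fractions). Each was taken from E1KD cells with TGFβ, untreated E1KD cells, NMuMG cells with TGFβ and untreated NMuMG cells, with 2 arrays per group, 12 groups and 24 arrays. A further 8 arrays held RNA precipitated from NMuMG cytosol with an antibody to hnRNP E1 or with control IgG, with and without TGFβ. TGFβ was given at 5 ng/ml for 24 h, and all cells, untreated ones included, grew in medium with serum and insulin. The knockdown is represented by 1 derived line, so a difference between E1KD and NMuMG cells cannot be told apart from a difference between these lines. In bulk RNA, fewer cells that express a gene and less RNA per cell cannot be told apart.

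The values are log2 signals, so a difference of 1 is a factor of 2 in signal, and the signals of different probe sets are not compared with each other. Duplicate arrays correlated at 0.974 to 0.998 across the probe sets kept. Pcbp1 averaged 9.44 in TGFβ-treated and 10.83 in untreated E1KD total RNA, against 13.14 and 13.10 in NMuMG total RNA with and without TGFβ, and it was lower in untreated E1KD cells by 2.28 (adjusted p = 9.1e-11). Of 8 epithelial markers 6 were kept, and Cldn7 and Esrp1 were not. In total RNA the keratins Krt8 and Krt18 were at 14.1 to 14.5, Epcam at 5.98 to 6.105 and Cldn3 at 6.005 to 6.155. The log2 of the summed signal of all 8 was 15.5 to 15.9 over the 16 groups. Of 9 mesenchymal markers 8 were kept, and Twist1 was not, with a log2 summed signal of 13.6 to 15.2. Vim was 13.79 to 14.095 in total RNA and Snai1 4.95 to 5.755. Fn1 was 12.93 and 13.03 in E1KD total RNA with and without TGFβ, against 11.49 and 9.64 in NMuMG total RNA. Of 5 immune markers 4 were kept, with a log2 summed signal of 9.95 to 11.3. Cd14 (8.89 to 10.83 in total RNA) and Csf1r (7.20 to 8.62) were above the median of the data on all 32 arrays, Cd68 on 24 and Cd3e on 16, whereas Ptprc, which defines leukocytes, was above it on 0. The part of other cells in the results was not tested. One pair of pools stood apart from the rest. The polysomal minus monosomal differences of untreated NMuMG cells correlated at -0.35, 0.03 and -0.13 across probe sets with those of TGFβ-treated E1KD, untreated E1KD and TGFβ-treated NMuMG cells, while those 3 correlated at 0.70 to 0.82 among themselves. The monosomal pool of untreated NMuMG cells also correlated most closely with its own total RNA (0.928 to 0.932, against 0.716 to 0.887 in the other monosomal pools). Their polysomal pool correlated with total RNA at 0.788 to 0.822, against 0.844 to 0.900 in the other polysomal pools. No label says whether the monosomal and polysomal arrays of untreated NMuMG cells were exchanged. With the sign of their difference turned, these correlations would be 0.35, -0.03 and 0.13, still below the 0.70 to 0.82 of the others. Pool comparisons that use these 4 arrays are therefore given beside others in E1KD or TGFβ-treated cells that do not, and the main ones also with the 2 pools exchanged. "Called" below means an adjusted p under 0.05 in limma, Benjamini-Hochberg over all 25432 probe sets, with 2 arrays per group. Where the arrays of groups are said not to overlap, this describes those arrays only. The share of all probe sets without overlap was not counted.

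Cast was selected by the study on these arrays, by its distribution between the pools, its TGFβ change in total RNA and its TGFβ change in both precipitates, so its values in the pools and precipitates, and its TGFβ changes in total RNA, are descriptions and carry no test. Its transcripts were rich in the polysomal pool in 3 of the 4 conditions and poor in it in untreated NMuMG cells, on all 3 probe sets. In TGFβ-treated E1KD cells the signal of 1435972_at was 8.71 and 8.88 in the polysomal pool, against 6.82 and 6.93 in the monosomal pool. In untreated E1KD cells it was 8.41 and 8.45 in the polysomal pool, against 7.31 and 7.43 in the monosomal pool. In TGFβ-treated NMuMG cells it was 7.38 and 7.48 in the polysomal pool, against 5.52 and 6.14 in the monosomal pool. Both polysomal arrays thus lay above both monosomal arrays in these conditions. In untreated NMuMG cells the order was the opposite, with 6.44 and 6.30 in the polysomal pool, against 8.22 and 8.36 in the monosomal pool. Across the 4 conditions in that sequence, polysomal minus monosomal was 1.92, 1.06, 1.60 and -1.92 (SE 0.15 each).

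The remaining Cast probe sets showed the same order with other sizes. In untreated NMuMG cells 1451413_at read 6.51 and 6.17 in the polysomal pool, against 8.88 and 9.13 in the monosomal pool, and in TGFβ-treated NMuMG cells 8.13 and 8.07, against 5.10 and 6.36. The arrays at 5.10 and 6.36 were the widest-set pair of any member in the pools. Its polysomal minus monosomal difference was 2.34, 1.24, 2.37 and -2.67 in TGFβ-treated E1KD, untreated E1KD, TGFβ-treated NMuMG and untreated NMuMG cells (SE 0.26 each). For 1426098_a_at the differences were 1.90, 0.91, 0.96 and -0.98 (SE 0.15 each). The pools did not overlap for either probe set in any of the 4 conditions.

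**Figure D1:**
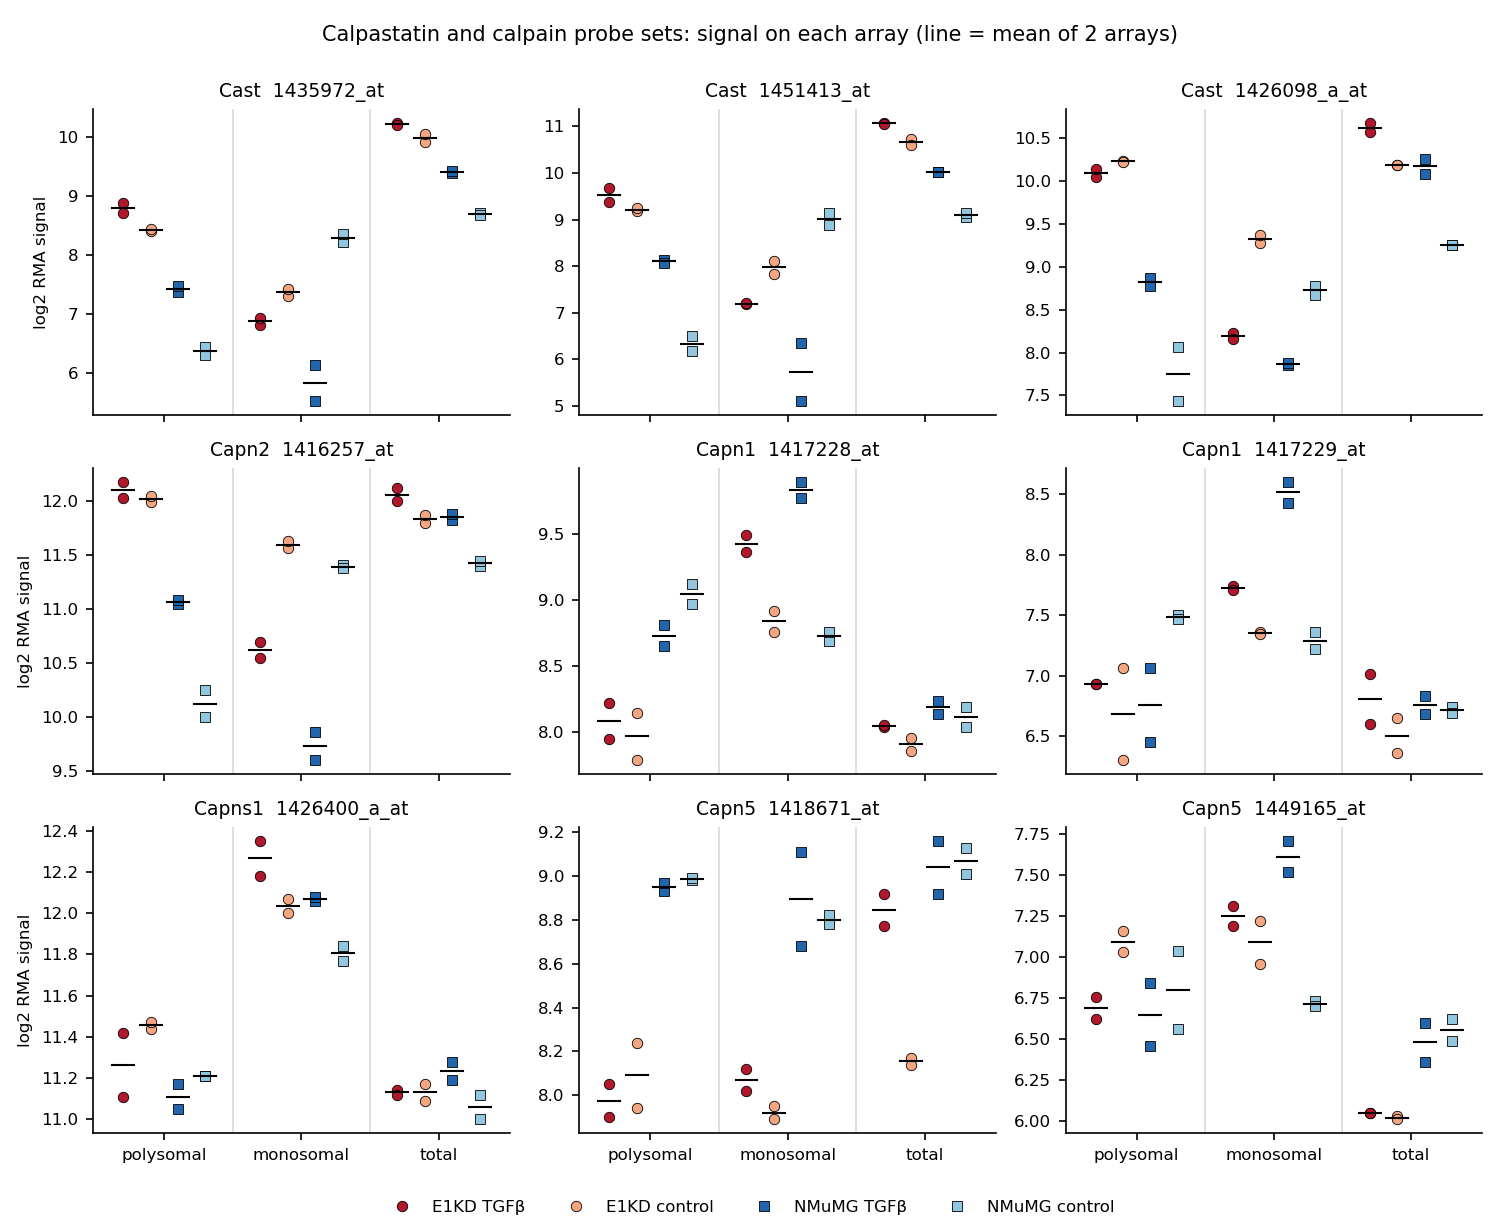
Log2 signal of the 9 probe sets on each of the 24 arrays of polysomal, monosomal and total RNA, 1 panel per probe set; points are single arrays, lines the mean of 2 arrays, and groups are E1KD with TGFβ, untreated E1KD, NMuMG with TGFβ and untreated NMuMG cells. In untreated NMuMG cells Cast 1435972_at sits at 6.44 and 6.30 in the polysomal pool against 8.22 and 8.36 in the monosomal pool, and Capn2 shows the same inversion.

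Capn2, the catalytic subunit of m-calpain, followed the pattern of its inhibitor. In TGFβ-treated E1KD cells it read 12.03 and 12.18 in the polysomal pool, against 10.55 and 10.70 in the monosomal pool. In untreated E1KD cells the values were closer, 11.99 and 12.05 in the polysomal pool, against 11.57 and 11.63 in the monosomal pool. With TGFβ, NMuMG cells had 11.05 and 11.09 in the polysomal pool, against 9.60 and 9.86 in the monosomal pool. Capn2 was thus polysome-rich in these 3 conditions with no overlap between the pools. In untreated NMuMG cells it was polysome-poor, at 10.25 and 10.00 in the polysomal pool, against 11.41 and 11.38 in the monosomal pool. The differences were 1.48 ± 0.11 (SE, adjusted p = 1.5e-08), 0.42 ± 0.11 (adjusted p = 0.0080), 1.34 ± 0.11 (adjusted p = 5.3e-08) and -1.27 ± 0.11 (adjusted p = 7.5e-08) in the same sequence of conditions. Their directions held under every scaling tried, although the 0.42 of untreated E1KD cells was no longer called without its first monosomal array (0.39, adjusted p = 0.058) or its second polysomal array (0.39, adjusted p = 0.052), or with centring on Actb and Gapdh (0.28, adjusted p = 0.39).

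Capn1, the catalytic subunit of μ-calpain, went the other way. On 1417228_at TGFβ-treated E1KD cells had 7.95 and 8.22 in the polysomal pool, against 9.36 and 9.49 in the monosomal pool, and untreated E1KD cells had 7.79 and 8.15, against 8.76 and 8.92. NMuMG cells with TGFβ had 8.65 and 8.81 in the polysomal pool, against 9.89 and 9.77 in the monosomal pool. In these 3 conditions Capn1 was polysome-poor and the pools did not overlap. Untreated NMuMG cells had 9.12 and 8.97 in the polysomal pool, against 8.69 and 8.76 in the monosomal pool. The differences were -1.34, -0.87, -1.10 and 0.32 (SE 0.13 each, adjusted p = 2.4e-07, 7.4e-05, 2.8e-06 and 0.039). The last one turned to -0.28 when arrays were centred on Actb and Gapdh, and it was not called without either monosomal array or without the first polysomal array of untreated NMuMG cells (adjusted p = 0.079 to 0.19).

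The dimmer Capn1 probe set, 1417229_at, gave -0.80, -0.67, -1.76 and 0.20 (SE 0.22 each, adjusted p = 0.0045, 0.023, 3.6e-06 and 0.42), the last of which also changed sign with centring on Actb and Gapdh. Its polysomal arrays of untreated E1KD cells were far apart, at 7.06 and 6.30, against 7.36 and 7.34 in the monosomal pool. Without the array at 6.30 the difference there was -0.29 (adjusted p = 0.34), and it was not called without either monosomal array of that group (adjusted p = 0.079 and 0.092).

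Capns1, the small subunit shared by both classical calpains, was polysome-poor in all 4 conditions, also in untreated NMuMG cells, and this direction held under every scaling tried. With TGFβ it read 11.11 and 11.42 in the polysomal pool of E1KD cells, against 12.18 and 12.35 in the monosomal pool. In NMuMG cells it read 11.17 and 11.05 with TGFβ in the polysomal pool, against 12.06 and 12.08 in the monosomal pool, and 11.21 and 11.21 without TGFβ, against 11.84 and 11.77. The 4 differences were -1.0, -0.58, -0.96 and -0.60 (SE 0.11 each), with adjusted p between 7.5e-07 and 5.1e-04, and only that of untreated NMuMG cells was no longer called when arrays were centred on their medians (-0.12, adjusted p = 0.27).

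Capn5, the non-classical calpain, gave different answers on its 2 probe sets. On 1418671_at polysomal minus monosomal lay between -0.10 and 0.19 in the 4 conditions and was not called in any. On 1449165_at it was -0.56 ± 0.16 (adjusted p = 0.0061) in TGFβ-treated E1KD cells and -0.97 ± 0.16 (adjusted p = 8.1e-05) in TGFβ-treated NMuMG cells. It was 0.01 and 0.09 in untreated E1KD and untreated NMuMG cells, values that changed sign with the scaling. The call in TGFβ-treated E1KD cells was lost without the second polysomal array (adjusted p = 0.050).

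Over the 6 calpain probe sets, 5 were called in TGFβ-treated E1KD cells (1 polysome-rich, 4 polysome-poor), where 60.7% of all probe sets were called. In untreated E1KD cells 4 of 6 were called (1 rich, 3 poor) against 35.0% of all probe sets. In TGFβ-treated NMuMG cells 5 of 6 were called (1 rich, 4 poor) against 49.7%, and in untreated NMuMG cells 3 of 6 (1 rich, 2 poor) against 71.2%. For untreated NMuMG cells array-median centring and quantile normalization each gave 5 of 6, against 77.1% and 66.9% of all probe sets. Shares of 6 probe sets are coarse, and nothing is read from them beside such backgrounds, whereas the members differed from one another in direction. In all 3 conditions other than untreated NMuMG, Capn2 was the 1 of these 6 probe sets called polysome-rich.

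**Figure D2:**
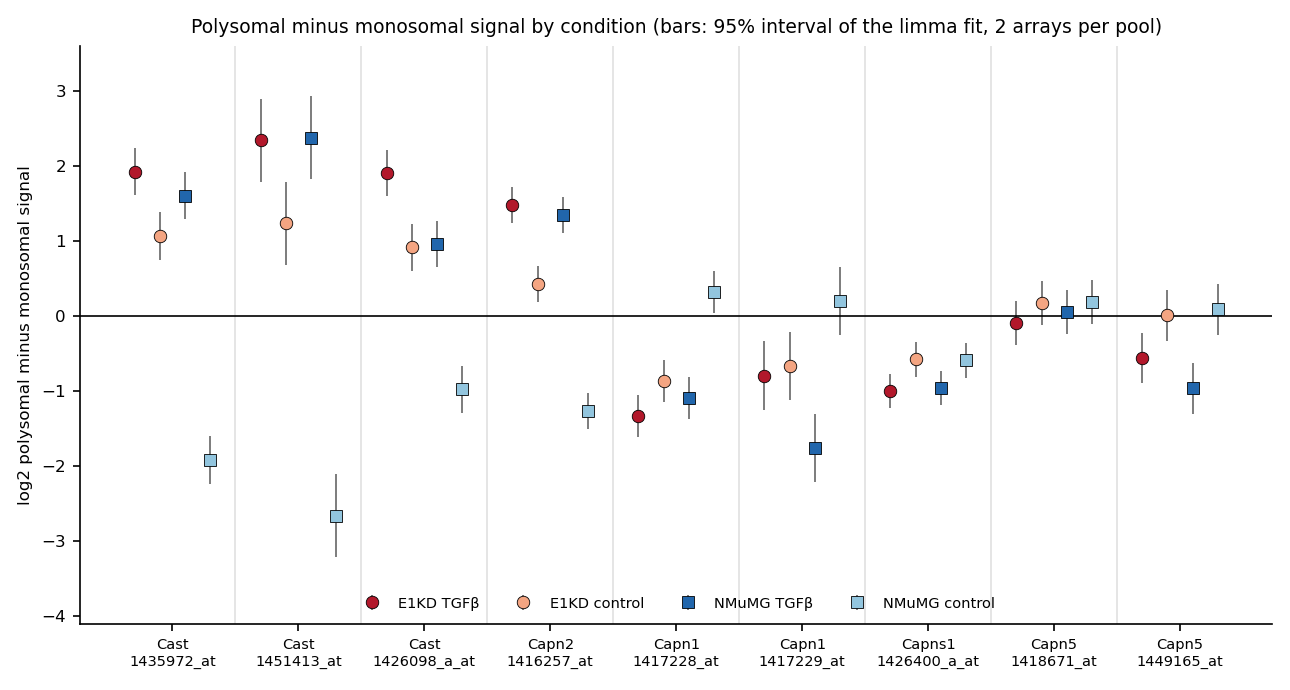
Polysomal minus monosomal log2 difference of each probe set in E1KD cells with TGFβ, untreated E1KD cells, NMuMG cells with TGFβ and untreated NMuMG cells; points are differences of means of 2 arrays and bars the 95% intervals of the limma fit, shown for Cast as a description. Capn2 and the Cast probe sets lie above 0 in 3 conditions and below 0 in untreated NMuMG cells (Capn2 at -1.27), and Capns1 lies below 0 in all 4.

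The study asked which transcripts move between the pools under TGFβ. Polysome shift here names how far TGFβ changed polysomal minus monosomal, that is, its value in treated cells minus that in untreated cells. In E1KD cells Capn2, Capn1 and Cast shifted less than in NMuMG cells, with the pools as labelled. The upper quartile of the E1KD shift over all probe sets was 0.61. Capn2 shifted toward polysomes by 1.06 ± 0.16 (SE), a 2.08-fold change of the ratio of the pools (adjusted p = 4.6e-04). The other 5 calpain probe sets lay between -0.57 and -0.12 and were not called (adjusted p between 0.051 and 0.78), although 3 of them had an unadjusted p under 0.05. The lowest in size, -0.12 on Capn1 1417229_at, rose just above 0 with centring on Actb and Gapdh. The 1 of 6 called compares with 28.7% of all probe sets (20.9% higher and 7.73% lower). This count was unstable. It was 3 with the replicate block (29.2% of all probe sets), 3 with all 32 arrays in the fit, 4 with array-median centring (30.4%) and 4 with quantile normalization (30.5%). It was also 3 without the second TGFβ polysomal array, and 2 without the first TGFβ monosomal or the first untreated polysomal array. The Cast probe sets were at 0.86 (1435972_at), 1.10 (1451413_at) and 0.99 (1426098_a_at), given as a description.

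In NMuMG cells Capn2 shifted toward polysomes by 2.61 ± 0.16 (6.10-fold, adjusted p = 2.5e-09), at the 93.8th percentile of all probe sets. Capn1 shifted away from them, by -1.42 ± 0.19 on 1417228_at (adjusted p = 5.4e-06) and -1.96 ± 0.30 on 1417229_at (adjusted p = 3.2e-05). Capn5 was at -1.05 ± 0.22 on 1449165_at (adjusted p = 6.2e-04) but at -0.13 ± 0.20 on 1418671_at (adjusted p = 0.56), the second of which was 0.68 with centring on Actb and Gapdh. Capns1 was at -0.37 ± 0.15 (adjusted p = 0.044), but at 0.44 with centring on Actb and Gapdh, and its adjusted p lay between 0.043 and 0.13 as single arrays were left out. As a description, the Cast probe sets were at 3.52 (1435972_at, 11.5-fold), 5.04 (1451413_at, 32.8-fold) and 1.94 (1426098_a_at, 3.82-fold). The first TGFβ monosomal array read 5.52 on 1435972_at and 5.10 on 1451413_at, at or below the median of all values (5.52). The folds on these probe sets thus rest partly on low signals, and their sizes are uncertain. The study chose Cast for a large shift of this kind, so its size is not ranked among all probe sets. The inhibitor and m-calpain thus moved toward polysomes and μ-calpain moved away, with the pools as labelled. With the untreated NMuMG pools exchanged, an alternative added after seeing the data, the shift of Capn2 was 0.07 ± 0.16 (adjusted p = 0.73) and that of Cast -0.32, -0.30 and -0.03, while Capn1 stayed at -0.78 and -1.57 (adjusted p = 0.0020 and 3.8e-04) and Capns1 was at -1.56 (adjusted p = 3.1e-07), 4 of 6 against 56.2% of all probe sets.

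Of the 6 calpain probe sets 5 were called for the shift in NMuMG cells, 1 higher and 4 lower, where 70.4% of all probe sets were called, 40.1% higher and 30.3% lower. A call in this contrast is therefore common, and it rests on the untreated NMuMG pools. The median shift of all probe sets was 0.09 and moved with the scaling, to -0.47 with array-median centring, 0.90 with Actb and Gapdh centring and -0.06 with quantile normalization. The share of called probe sets that were higher was 57.0%, against 39.4%, 90.5% and 50.8% under those settings, and in E1KD cells 73.0%, against 50.3%, 92.6% and 54.1%. Relative to the median of 0.09, the shift of Capn2 was 2.52, that of Capn1 -1.51 and -2.05, that of Capns1 -0.46 and that of Capn5 -0.22 and -1.14. The same quantity for Cast was 3.43, 4.95 and 1.85. With Actb and Gapdh centring 3 of the 6 calpain probe sets were called.

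**Figure D3:**
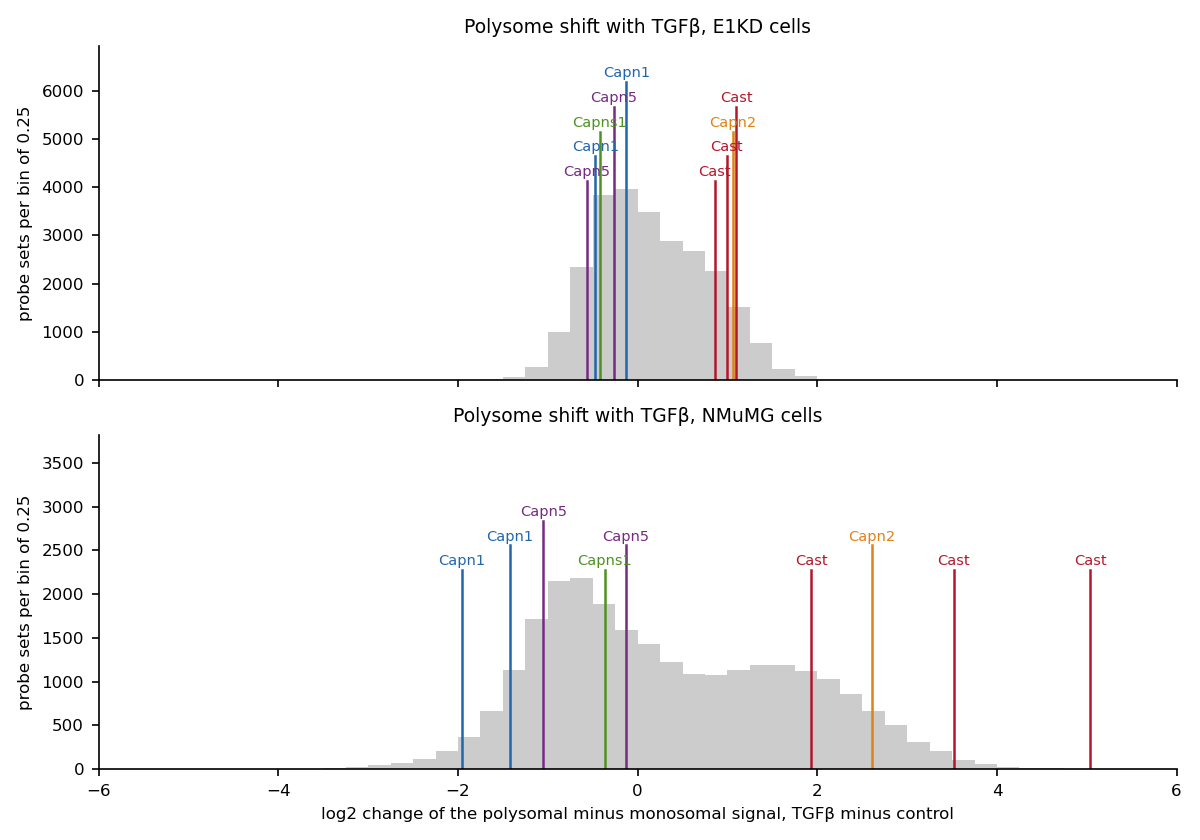
Number of probe sets by polysome shift (log2) in E1KD cells (top) and NMuMG cells (bottom), over the 25432 probe sets kept, with the members marked. In E1KD cells Capn2 lies at 1.06 and the other calpains between -0.57 and -0.12; in NMuMG cells Capn2 lies at 2.61, Cast 1451413_at at 5.04 and Capn1 at -1.42 and -1.96, while the marks of Capns1 and Capn5 1418671_at change sign with Actb and Gapdh centring.

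By pool, TGFβ lowered monosomal Capn2 in both lines, by -0.98 ± 0.11 in E1KD cells (adjusted p = 1.5e-05) and -1.67 ± 0.11 in NMuMG cells (adjusted p = 4.7e-09). Monosomal Capn1 1417228_at rose by 0.59 ± 0.13 in E1KD cells (adjusted p = 0.0025) and by 1.11 ± 0.13 in NMuMG cells (adjusted p = 1.6e-06). In E1KD cells these 2 were the only calpain probe sets called in the monosomal pool, against 39.3% of all probe sets, and 4 were called with quantile normalization. In NMuMG cells 5 of 6 were called, 4 of them higher, against 75.3%, and Capns1 (0.27, adjusted p = 0.037) was among them but turned to -0.38 with centring on Actb and Gapdh and was not called without any 1 of its 4 arrays (adjusted p = 0.064 to 0.15). The polysomal pool of NMuMG cells gained Capn2, by 0.95 ± 0.11 (adjusted p = 1.2e-05), and lost Capn1 1417229_at, by -0.73 ± 0.22 (adjusted p = 0.017), so that 2 of 6 were called against 30.1%. The Capn1 call was lost without either untreated array or without the second TGFβ array (adjusted p = 0.060 to 0.22). The NMuMG changes by pool use the untreated NMuMG pools that stood apart. With those pools exchanged, polysomal Capn2 would average 11.07 with TGFβ against 11.395 without, and monosomal Capn2 9.73 against 10.125. Polysomal Capn1 1417229_at would average 6.755 against 7.29, and monosomal Capn1 1417228_at 9.83 against 9.045. In the polysomal pool of E1KD cells limma called 0 of 6 (range -0.41 to 0.25, 1 with an unadjusted p under 0.05), against 4.45% of all probe sets. Cast changed in the monosomal pool by -0.50, -0.79 and -1.13 in E1KD cells and by -2.46, -3.28 and -0.86 in NMuMG cells on 1435972_at, 1451413_at and 1426098_a_at. In the polysomal pool its changes were 0.37, 0.32 and -0.14 in E1KD cells and 1.06, 1.76 and 1.08 in NMuMG cells.

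The shift itself differed between the lines for 3 of the 6 calpain probe sets, where 36.5% of all probe sets differed. E1KD minus NMuMG was -1.55 ± 0.23 for Capn2 (adjusted p = 1.1e-04), 0.95 ± 0.26 for Capn1 1417228_at (adjusted p = 0.011) and 1.83 ± 0.43 for Capn1 1417229_at (adjusted p = 0.0039). With Actb and Gapdh centring 1 of 6 was called. The differences of Capns1 (-0.06, 95% interval -0.52 to 0.41) and Capn5 (-0.14 on 1418671_at, interval -0.72 to 0.45, and 0.49 on 1449165_at, interval -0.19 to 1.16) were not called and changed sign between scalings. For Cast the differences were -2.66, -3.94 and -0.95, as a description. With the untreated NMuMG pools exchanged, Capn2 turned to 0.99 (adjusted p = 0.0017), the Cast values were 1.18, 1.40 and 1.02, and Capn1 1417228_at was no longer called (0.31, adjusted p = 0.34).

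For Capn2 and Capn1 1417228_at this difference lay mostly in the untreated cells, and for Capn1 1417229_at in untreated and treated cells alike. Without TGFβ the polysomal minus monosomal difference was higher in E1KD than in NMuMG cells for Capn2, by 1.69 ± 0.16 (adjusted p = 3.2e-07), and lower for Capn1, by -1.19 ± 0.19 (adjusted p = 5.1e-05) and -0.87 ± 0.30 (adjusted p = 0.022). These were 3 of 6, against 61.8% of all probe sets, and 1 of 6 with Actb and Gapdh centring, and the call of Capn1 1417229_at was lost without the first NMuMG monosomal array, the first E1KD monosomal array or the second E1KD polysomal array (adjusted p = 0.051 to 0.14). With TGFβ, a comparison that leaves out the untreated NMuMG pools, 1 of 6 was called against 12.8% of all probe sets. That was Capn1 1417229_at, at 0.97 ± 0.30 (adjusted p = 0.048), and its call was lost when any 1 of 6 of the 8 arrays was left out, all but the first monosomal and first polysomal NMuMG arrays (adjusted p = 0.094 to 0.20). Capn2 differed between TGFβ-treated lines by 0.14, with an interval of -0.20 to 0.48 and a sign that changed with Actb and Gapdh centring. With the untreated NMuMG pools exchanged, the difference without TGFβ was -0.85 for Capn2 (adjusted p = 2.7e-04). With the pools as labelled, that of Cast was 2.98, 3.90 and 1.89 without TGFβ and 0.32, -0.04 and 0.95 with it (1435972_at, 1451413_at and 1426098_a_at), and the 0.32 became -0.087 with quantile normalization.

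In total RNA 1 calpain probe set of 6 was called under TGFβ in each line, Capn5 1418671_at in E1KD cells and Capn2 in NMuMG cells. In E1KD cells Capn5 1418671_at was 8.77 and 8.92 with TGFβ, against 8.17 and 8.14 without it. The groups did not overlap, and the rise of 0.69 ± 0.14 (1.61-fold, adjusted p = 0.0018) was the 1 call of 6, against 21.2% of all probe sets. The second Capn5 probe set did not show it (6.05 and 6.05 with TGFβ, against 6.03 and 6.01 without). Capn2 was 12 and 12.12, against 11.80 and 11.87, a difference of 0.23 ± 0.11 that was not called (adjusted p = 0.19).

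In NMuMG total RNA Capn2 was 11.83 and 11.88 with TGFβ, against 11.40 and 11.45 without it. This rise of 0.43 ± 0.11 (adjusted p = 0.033) was the 1 call of 6, against 5.43% of all probe sets, and it was lost without any 1 of the 4 arrays (0.41 to 0.46, adjusted p = 0.15 to 0.23). Capn1, Capns1 and Capn5 lay between -0.08 and 0.18 and were not called, and both Capn5 values changed sign with Actb and Gapdh centring. The TGFβ change differed between the lines for Capn5 1418671_at alone, by 0.72 ± 0.20 (E1KD minus NMuMG, adjusted p = 0.024), 1 of 6 against 11.4% of all probe sets. It was not called without 5 of the 8 arrays in turn, namely both untreated and the second TGFβ E1KD array, the first TGFβ NMuMG array and the second untreated NMuMG array (adjusted p = 0.066 to 0.12). A small change of total RNA was part of how the study selected Cast. As a description, Cast read higher with TGFβ on all 3 probe sets, by 0.24, 0.40 and 0.44 in E1KD cells and by 0.72, 0.93 and 0.92 in NMuMG cells (1435972_at, 1451413_at and 1426098_a_at).

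The knockdown line held more Cast RNA before any treatment, a comparison the selection of Cast did not use. In untreated cells 1435972_at read 9.92 and 10.05 in E1KD total RNA, against 8.71 and 8.68 in NMuMG total RNA. The same probe set was higher by 1.29 ± 0.15 (2.45-fold, adjusted p = 5.1e-06). On 1451413_at E1KD cells had 10.73 and 10.59, against 9.05 and 9.15 in NMuMG cells (1.56 ± 0.26, adjusted p = 2.2e-04). On 1426098_a_at they had 10.19 and 10.19, against 9.26 and 9.26 (0.93 ± 0.15, adjusted p = 1.2e-04). All 3 Cast probe sets were thus higher in both E1KD arrays than in both NMuMG arrays.

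Among the calpains Capn2 was higher and Capn5 lower in the untreated knockdown line. Capn2 read 11.80 and 11.87 in E1KD cells, against 11.40 and 11.45 in NMuMG cells (0.41 ± 0.11, adjusted p = 0.011). On Capn5 1418671_at E1KD cells had 8.17 and 8.14, against 9.01 and 9.13 (-0.92 ± 0.14, adjusted p = 8.3e-05). Capn5 1449165_at agreed in direction, at 6.03 and 6.01, against 6.49 and 6.62 (-0.54 ± 0.16, adjusted p = 0.017). Capn1 (-0.21 on both probe sets, adjusted p = 0.29 and 0.56) and Capns1 (0.07, adjusted p = 0.73) were not called. In all, 6 of the 9 probe sets were called, 4 higher and 2 lower, against 29.3% of all probe sets (15.8% higher and 13.5% lower). The call of Capn2 was lost without the second E1KD or first NMuMG array (adjusted p = 0.083 and 0.076), and that of Capn5 1449165_at without either E1KD array or the second NMuMG array (adjusted p = 0.071 to 0.12). With Actb and Gapdh centring neither was called (adjusted p = 0.055 and 0.28).

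With TGFβ in both lines Cast was also higher in E1KD cells on all 3 probe sets. E1KD cells had 10.24 and 10.21 on 1435972_at, against 9.40 and 9.42 in NMuMG cells (0.82 ± 0.15, adjusted p = 5.8e-04). On 1451413_at they had 11.07 and 11.05, against 10.02 and 10.03 (1.04 ± 0.26, adjusted p = 0.0067). On 1426098_a_at the values were 10.57 and 10.68, against 10.26 and 10.09 (0.45 ± 0.15, adjusted p = 0.030), a call lost without any 1 of the 4 arrays (adjusted p = 0.054 to 0.20). No calpain probe set was called, with Capn2 at 0.21 (adjusted p = 0.21) and Capn5 1449165_at at -0.43 (adjusted p = 0.056, unadjusted p under 0.05). The 3 of 9 called compare with 27.2% of all probe sets.

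**Figure D4:**
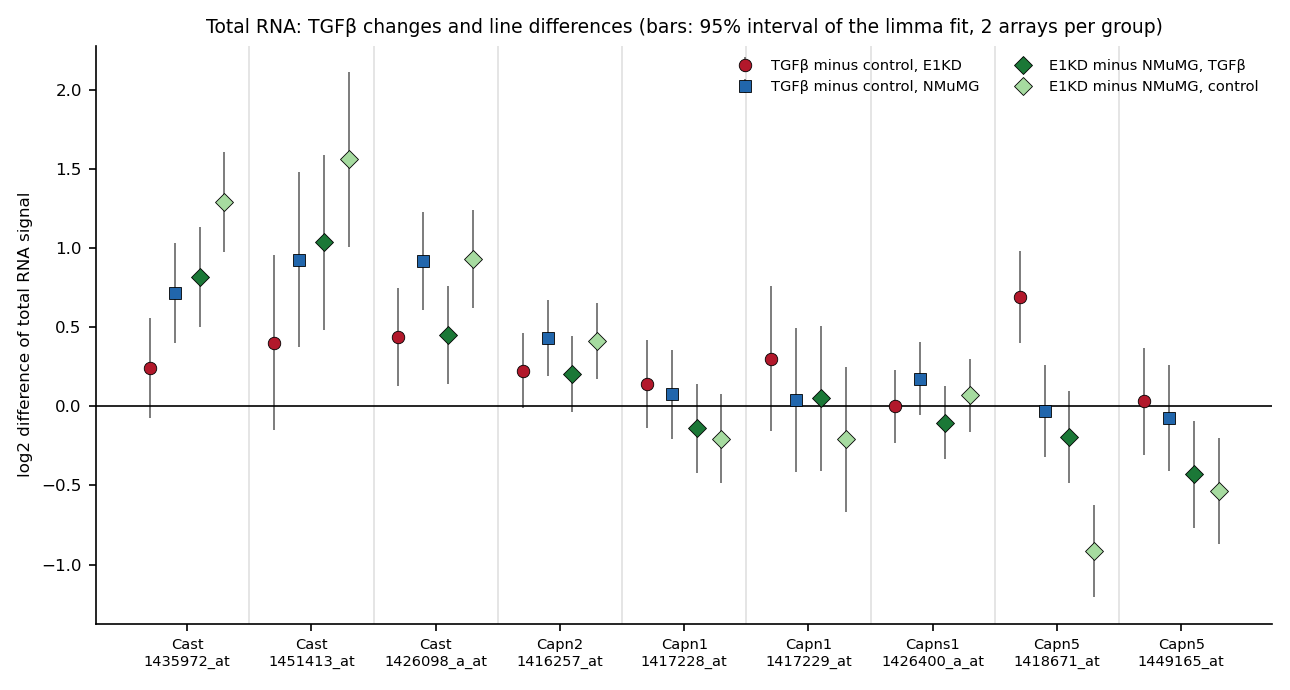
Log2 differences of total RNA signal for the 9 probe sets, namely TGFβ minus control in E1KD and in NMuMG cells and E1KD minus NMuMG with TGFβ and without; points are differences of means of 2 arrays and bars the 95% intervals of the limma fit. E1KD minus NMuMG without TGFβ lies above 0 for Cast (1.29 on 1435972_at) and below 0 for Capn5 (-0.92 and -0.54), while the TGFβ change of Capn5 1418671_at is 0.69 in E1KD cells and -0.03, a value that changes sign with Actb and Gapdh centring, in NMuMG cells.

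The immunoprecipitates were meant to show which transcripts hnRNP E1 holds. The labels of the hnRNP E1 arrays disagree about treatment. The titles place array numbers 13 and 14 once each in both treatments, whereas the sample descriptions call both number 14 arrays TGFβ-treated and both number 13 arrays untreated. The comparison of hnRNP E1 with IgG over both treatments does not depend on it for its values. There, averaged over TGFβ and untreated cells, Capn1 and Capns1 were higher in the hnRNP E1 precipitate than in the IgG precipitate. Capn1 1417228_at read 9.65, 9.63, 9.60 and 9.52 with hnRNP E1, against 9.14, 9.12, 9.0 and 9.0 with IgG (0.54 ± 0.07, adjusted p = 0.0027). Capn1 1417229_at had 8.33 to 8.41 on the 4 hnRNP E1 arrays, against 7.78 to 8.0 on the 4 IgG arrays (0.46 ± 0.07, adjusted p = 0.0047). Capns1 had 12.09, 11.94, 12.07 and 11.86 with hnRNP E1, against 11.67, 11.64, 11.39 and 11.35 with IgG (0.48 ± 0.08, adjusted p = 0.0069). None of these overlapped between the antibodies.

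Capn2 and Capn5 were not called in this comparison. Capn2 was at 0.12 ± 0.18 (adjusted p = 0.69) and Capn5 at 0.13 and 0.08 (adjusted p = 0.22 and 0.60), and all 3 fell below 0 with Actb and Gapdh centring. In all, 3 of the 6 calpain probe sets were called, against 25.6% of all probe sets, and 0 of 6 with Actb and Gapdh centring. With the arrays grouped by number, 3 of 6 were called, against 42.2% of all probe sets. Given as a description, Cast 1435972_at read 8.63, 9.87, 9.72 and 8.91 on the hnRNP E1 arrays, against 9.77, 9.76, 9.46 and 9.51 with IgG, a difference of -0.34, and the other Cast probe sets were at -0.50 (1451413_at) and -0.02 (1426098_a_at). The Cast arrays with hnRNP E1 lay on both sides of those with IgG. The share of called probe sets that were higher was 54.5%, against 45.8% with array-median centring and 25.4% with Actb and Gapdh centring.

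Within the hnRNP E1 precipitates Cast and Capn2 followed the array number and not the titled treatment. Both number 13 arrays read 9.87 and 9.72 on Cast 1435972_at, and both number 14 arrays read 8.63 and 8.91. For Capn2 they read 12.52 and 12.57 against 11.95 and 11.89. By titled treatment Capn2 had 11.95 and 12.52 with TGFβ, against 12.57 and 11.89 without, a difference of 0.01, and limma called 0 of 6 calpain probe sets, 0 of them with an unadjusted p under 0.05, and 0% of all probe sets (403 with an unadjusted p under 0.05). Grouped by number as the descriptions have it, 14.7% of all probe sets were called, and of the calpains Capn2 alone, lower with TGFβ by -0.63 ± 0.09 (adjusted p = 0.0018). The Cast probe sets were then at -1.03, -1.11 and -0.91, as a description, and by the titles at -0.07, -0.15 and -0.11, of which 1435972_at and 1426098_a_at rose above 0 under another scaling. The labels alone do not settle which grouping is right. Across the probe sets kept, arrays of the same number correlated at 0.995 and 0.996, and duplicates as titled at 0.987 and 0.985. Entry into the selection that took in Cast needed a mean signal at least 1.2 times as high without TGFβ as with it in the hnRNP E1 precipitate, and on Cast 1435972_at this ratio was 0.99 as titled and 2.03 by number. On this probe set, that of the study's selection, only the grouping by number met the limit. This bears on how the study grouped the arrays and does not show how the samples were treated.

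With control IgG, TGFβ-treated extracts gave 12.30 and 12.41 on Capn2, against 11.89 and 11.87 in untreated extracts, a difference of 0.48 ± 0.25 that limma did not call (adjusted p = 0.72). Of the 6 calpain probe sets 0 were called, against 0.00393% of all probe sets (1 probe set, and 1765 with an unadjusted p under 0.05). Capns1 and Capn5 1418671_at had an unadjusted p under 0.05. Fitted on the 4 IgG arrays alone, Capn2 was called (adjusted p = 0.030), 1 of 6 against 6.17% of all probe sets. Cast 1426098_a_at was at 0.50, as a description.

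**Figure D5:**
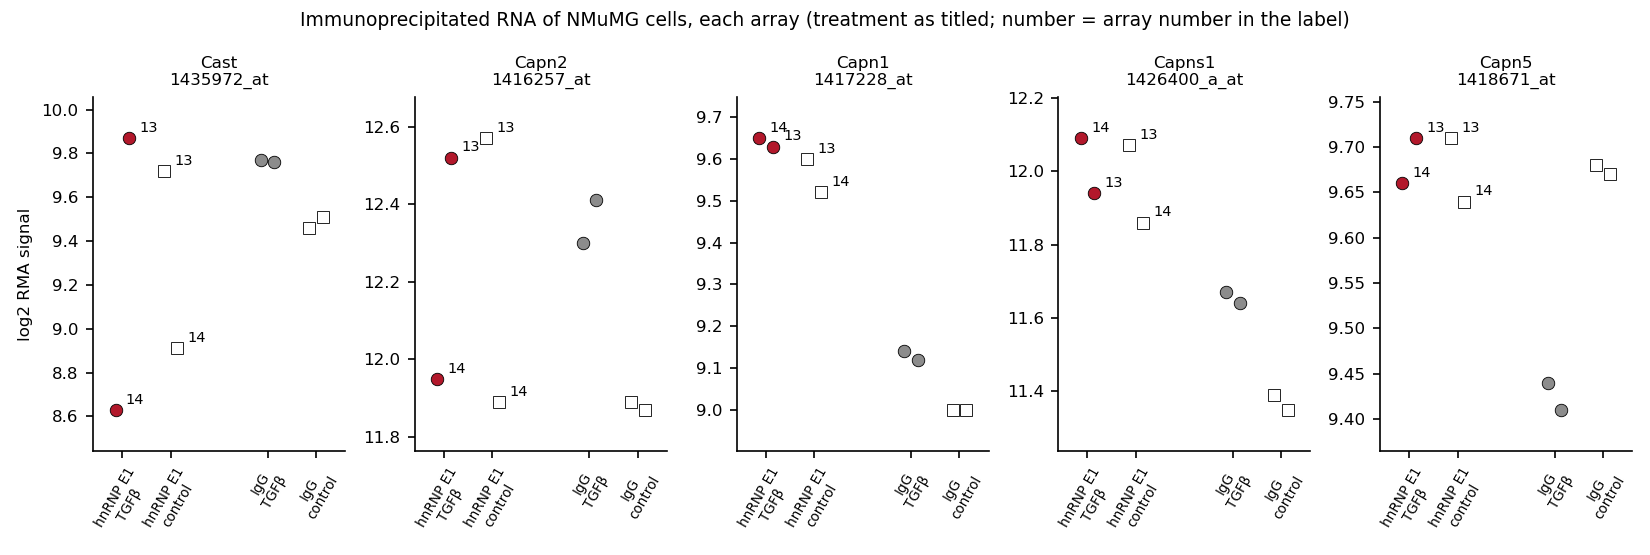
Log2 signal of 1 probe set per gene on the 8 arrays of hnRNP E1 and IgG precipitates of NMuMG cytosol, with and without TGFβ as titled; numbers beside the hnRNP E1 points are the array numbers. Capn1 and Capns1 lie higher on all 4 hnRNP E1 arrays than on the 4 IgG arrays, and Cast and Capn2 split by array number, with 9.87 and 9.72 for Cast on number 13 and 8.63 and 8.91 on number 14.

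Across the means of the 12 conditions of total, monosomal and polysomal RNA, Cast correlated at 0.88 to 0.94 with Capn2 and at -0.91 to -0.78 with Capn1, over the 3 Cast probe sets. Capn1 and Capn2 correlated at -0.90 and -0.83, and Cast with Capns1 at -0.60 to -0.51. The 3 Cast probe sets correlated with each other at 0.91 to 0.99 and those of Capn1 at 0.94, but the pair of Capn5 at -0.19, so Capn5 has no single pattern on this array. These are descriptions over n = 12 conditions, which share 2 lines and the pools of the same gradients. How many other probe sets correlate as strongly with Cast was not counted. Over the 10 conditions other than the untreated NMuMG pools, Cast correlated at 0.85 to 0.95 with Capn2, -0.93 to -0.80 with Capn1 and -0.78 to -0.68 with Capns1. The genes whose pattern came closest to Cast 1435972_at were Msn (r = 0.983), which links actin to the membrane, Sash1 (0.981) and Ap3m1 (0.979). The study selected Msn on these arrays by the same limits as Cast, so the likeness of these 2 genes is partly built in. Closest to Capn2 were Pkp2 (0.981), a desmosomal plaque protein, Grsf1 (0.98) and Fermt2 (0.98), an integrin activator. Capn1 was most like Abhd11 (0.991), Fbxl15 (0.990) and Sertad3 (0.986), and Capns1 most like Eipr1 (0.983), 2310011J03Rik (0.98) and Usf1 (0.98). The nearest to Capn5 1418671_at, Slco4a1 (0.936), Zmynd8 (0.928) and Hnf4a (0.927), were less alike.

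Of 11 further calpain genes on the array, 6 were kept (Capn6, Capn7, Capn10, Capn11, Capn12 and Capn15). In NMuMG cells 1 shifted toward polysomes, Capn7 by 3.11 ± 0.36 (adjusted p = 1.2e-06), and 4 away from them, Capn15 by -1.08 (adjusted p = 0.0028), Capn10 by -0.94 (adjusted p = 2.9e-05), Capn11 by -0.92 (adjusted p = 0.038) and Capn12 by -0.88 (adjusted p = 0.018). These 5 of 6 stand beside 70.4% of all probe sets called (40.1% higher and 30.3% lower). Their median was -0.90, beside 0.09 over all probe sets. In E1KD cells 0 of 6 were called by limma, against 28.7% of all probe sets, with a median of -0.18 beside 0.08. Capn7 (-2.24, adjusted p = 0.0028) and Capn10 (0.82, adjusted p = 0.0056) differed between the lines in this shift, 2 of 6 against 36.5% of all probe sets, whereas between TGFβ-treated lines their polysomal minus monosomal differences were 0.07 and 0.31 (adjusted p = 0.93 and 0.17). Capn10 was also higher in untreated E1KD than NMuMG total RNA, by 0.39 (adjusted p = 0.0078), where 15.8% of all probe sets were higher. Capn15 was higher in the hnRNP E1 than the IgG precipitate, by 0.77 (adjusted p = 0.0026), where 14% of all probe sets were higher. The counts of this list in these comparisons are not given.

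Substrates that calpains cut in adhesions and the cytoskeleton were followed through a list of 18 genes, 16 of them kept. The list includes Actn1, which the study selected on these arrays as it did Cast. Any part of Actn1 in the counts of shifts is therefore no test. In E1KD cells 7 shifted toward polysomes and 1 away (20.9% higher and 7.73% lower over all probe sets), with a median of 0.45 beside 0.08, among them Itgb1, the integrin β1 chain, by 1.09 (adjusted p = 7.4e-04). In NMuMG cells 9 shifted toward polysomes, 2 away and 5 were not called (40.1% higher and 30.3% lower over all probe sets), with a median of 1.18. Itgb1 led with 3.64 ± 0.18 (adjusted p = 5.1e-10), followed by Vcl, vinculin, with 2.67 (adjusted p = 2.1e-07), Ctnnb1, β-catenin, with 2.21 (adjusted p = 1.5e-08), and Cdh1, E-cadherin, with 2.02 (adjusted p = 2.6e-07). Flna, filamin A, and Src went the other way (-0.89 and -0.87, adjusted p = 1.2e-04 and 1.4e-04). Tln1, the talin that calpain cleaves at focal adhesions, was at 0.39 (adjusted p = 0.14). In untreated total RNA, where 15.8% of all probe sets were higher and 13.5% lower, 5 of the 16 were higher in E1KD than NMuMG cells, led by Itgb1 (0.91, adjusted p = 3.8e-05) and Vcl (0.71, adjusted p = 0.0071), and 3 were lower, led by Ezr (-0.95, adjusted p = 4.6e-06) and Cdh1 (-0.59, adjusted p = 0.0045). Tln1 (1.0, adjusted p = 0.0014) and Flna (0.85, adjusted p = 0.0027) were higher in the hnRNP E1 than the IgG precipitate. There 25.6% of all probe sets were called, 14% higher. The count of the list in this comparison is not given, so nothing is read about the list from these genes. The scalings, under which the calpain calls of this comparison were not stable, were not applied to list genes.

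Cathepsins are mostly lysosomal cysteine proteases, which the cystatins inhibit, and 8 of 12 genes of this list were kept. In E1KD cells 3 shifted toward polysomes (Ctsc by 0.90, Ctsb by 0.82 and Ctsl by 0.73) and 1 away (Cst3, the cystatin C gene, by -0.63), 4 of 8 against 28.7% of all probe sets. In NMuMG cells 4 shifted toward polysomes, led by Ctsc (2.81) and Ctsl (2.23), and 2 away, Cst3 by -1.48 and Ctsd, which encodes an aspartic protease, by -0.52, with a median of 0.62. These 6 of 8 stand beside 70.4% of all probe sets.

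Of the genes of calcium entry and stores, 10 of 11 were kept. In E1KD cells 2 shifted toward polysomes, Atp2b1 by 1.41 (adjusted p = 8.9e-04) and Atp2a2 by 0.81 (adjusted p = 9.7e-04), and 0 away, against 28.7% of all probe sets, with a median of 0.25 beside 0.08. In NMuMG cells 3 shifted toward polysomes (Stim2 by 2.45, Atp2b1 by 2.36 and Atp2a2 by 1.0) and 3 away (Orai3 by -1.87, Stim1 by -1.30 and Orai1 by -1.09), against 70.4% of all probe sets, with a median of 0.10 beside 0.09. In untreated total RNA 1 of these was higher in E1KD than in NMuMG cells and 4 were lower, led by Itpr3 (-1.11) and Orai1 (-0.95), against 29.3% of all probe sets.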

How the data were processed

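The authors deposited log2 signals per probe set, which their methods credit to RMA in Affymetrix Expression Console, with MAS5 used for detection calls only. RMA corrects background, normalizes by quantiles and summarizes probes, which assumes similar overall distributions across arrays, an assumption the pools need not meet. The deposited values were used unchanged. Probe sets above the median of all values (5.52) on at least 8 of 32 arrays were kept, and array controls were left out. Symbols came from the platform annotation, where 34945 probe sets had 1 symbol, 932 several and 9160 none. Groups followed the sample titles. limma 3.58.1 in R 4.3.3 was fitted to 24 arrays (12 residual degrees of freedom) and separately to the 8 precipitates (4), with empirical Bayes, Benjamini-Hochberg adjustment and no block; its scripts were tested on simulated data. Tables and plots used Python 3.11.15 and matplotlib 3.10.9. The labels call samples biological replicates without naming separate cultures, so p-values measure the spread between these samples, and the number of arrays limits precision.

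The members, lists and tests were chosen with earlier results of these data known. Named were all member probe sets, up to 4 called genes per list of largest change (others named beside them were chosen after their values were seen), and the 3 genes most like each member. The comparisons of polysomal minus monosomal between the lines and the exchange of untreated NMuMG pools were added after seeing the data. Alternatives were 2 other filters, fits on more or fewer arrays, an intensity trend, a block for the replicate letter, 3 scalings, gene means, the other precipitate grouping and leaving out each array.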

Additional observations from a re-analysis of the deposited data

Results flagged for a closer look

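The TGFβ-induced polysome shift differed between E1KD and NMuMG cells, by the interaction test in limma, for Capn2 (-1.55, SE 0.23, adjusted p = 1.1e-04), for Capn1 1417228_at (0.95, SE 0.26, adjusted p = 0.011) and for Capn1 1417229_at (1.83, SE 0.43, adjusted p = 0.0039). Capn2 shifted by 1.06 in E1KD and 2.61 in NMuMG cells, and Capn1 by -0.47 and -0.12 in E1KD and -1.42 and -1.96 in NMuMG cells on 1417228_at and 1417229_at.

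The polysomal minus monosomal difference also differed between the untreated lines, by 1.69 for Capn2 (adjusted p = 3.2e-07), -1.19 for Capn1 1417228_at (adjusted p = 5.1e-05) and -0.87 for Capn1 1417229_at (adjusted p = 0.022). Between the TGFβ-treated lines it differed for Capn1 1417229_at by 0.97 (adjusted p = 0.048), while 1417228_at was at -0.24 (adjusted p = 0.43). Untreated NMuMG pools, which stood apart on the whole array, enter the NMuMG shifts and the TGFβ changes of the NMuMG pools. They also enter the differences of shift between the lines and the differences between untreated lines. With those pools exchanged, the difference of shift was 0.99 for Capn2 (adjusted p = 0.0017), and the difference between untreated lines was -0.85 (adjusted p = 2.7e-04).

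The TGFβ change of total RNA differed between the lines for Capn5 1418671_at by 0.72 (SE 0.20, adjusted p = 0.024), with 0.69 in E1KD and -0.03 in NMuMG cells, the second of which changed sign with Actb and Gapdh centring. On Capn5 1449165_at the difference was 0.11 (adjusted p = 0.88). Groups of 2 arrays allow no test for a single outlying array.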

How the results depend on the processing

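Of 2958 recomputed values of single probe sets, 2603 kept their direction and side of the threshold or moved by less than the spread between replicates. Numbers that follow are calpain probe sets called of 6 unless stated. With centring on Actb and Gapdh (5 probe sets) the polysome shift gave 3 for NMuMG cells and 1 for the difference between lines, the difference between untreated lines gave 1 and that between treated lines 0, and TGFβ changes gave 3 (monosomal NMuMG), 1 (polysomal NMuMG), 1 (monosomal E1KD), 0 (total NMuMG) and 0 (their difference between lines); hnRNP E1 against IgG gave 0. The shift in E1KD cells gave 2 with the stricter filter, 3 with all 32 arrays, 2 with an intensity trend and 4 with array-median centring or quantile normalization. Those last 2 scalings gave 5 for polysomal minus monosomal in untreated NMuMG cells. Quantile normalization gave 4 for monosomal E1KD RNA and 0 for the difference of total changes. No filter gave 0 for total NMuMG RNA, for the difference of total changes and for treated lines. All 32 arrays gave 0 for total NMuMG RNA. Only the arrays compared gave 1 for polysomal NMuMG RNA, 0 for treated lines and 1 for IgG, and array-median centring and quantile normalization gave 0 for treated lines. By array number the hnRNP E1 precipitates gave 1. Exchanging replicate 1 is that same grouping with the treatment names turned. It gave the same 1 with the opposite sign, which is no separate check.

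Reversed values with Actb and Gapdh centring were 0.44 (Capns1) and 0.68 (Capn5 1418671_at) for the NMuMG shift, -0.28 (Capn1 1417228_at) and -0.52 (Capn5 1449165_at) for untreated NMuMG pools, and -0.38 (Capns1) and -0.55 (Capn5 1418671_at) for monosomal NMuMG RNA. Array-median centring gave -0.43 for Capns1 between untreated lines, quantile normalization -0.087 for Cast 1435972_at between treated lines, the mean of both Capn5 probe sets -0.46 for TGFβ-treated NMuMG pools, and array number -0.63 for Capn2. With the untreated NMuMG pools exchanged, Cast was at -0.025 (1426098_a_at), -0.32 (1435972_at) and -0.295 (1451413_at) for the NMuMG shift, at 1.015, 1.18 and 1.395 for its difference between lines and at -0.07, -0.86 and -1.43 between untreated lines, and in the last 2 comparisons Capn2 was at 0.99 and -0.85 and Capns1 at 1.135 and -1.175. The causes were not tested, beyond the scaling itself.

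Leaving out 1 array at a time gave 4 to 5 for the NMuMG shift, 1 to 3 for the E1KD shift (3 without the second TGFβ polysomal array, 2 without the first TGFβ monosomal or first untreated polysomal array), 3 for the difference between lines, 2 to 3 between untreated lines and 0 to 1 between treated lines. It gave 2 to 4 for untreated E1KD pools, 2 to 3 for untreated NMuMG pools, 5 for TGFβ-treated NMuMG pools and 4 to 5 for TGFβ-treated E1KD pools, 4 for monosomal NMuMG RNA, 1 to 2 for polysomal NMuMG RNA, 2 for monosomal E1KD RNA, 0 for total NMuMG RNA, 1 for total E1KD RNA and 0 to 1 for their difference. Of 9 members it gave 4 to 5 between untreated and 2 between TGFβ-treated total RNA of the lines. It gave 3 calpain probe sets for hnRNP E1 against IgG.

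Replicate letters shared between groups pair nothing that the labels state, and deviations of same-lettered arrays correlated at -0.38 to 0.32 (median 0.06 over 66 pairs of groups, 21 above 0.1). With the replicate block 3 calpain probe sets were called for the E1KD shift in place of 1, and no other count of members moved by over 1.5 times. Over all probe sets hnRNP E1 against IgG called 6522 without the block, 5242 with it and 6764 with crossed letters, a pairing chosen after seeing the data, and for untreated NMuMG pools 18101, 18162 and 18382.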
